A study of Homo sapiens with 6 samples.

Results

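Cadherins and the catenins bound to them were followed in RNA-seq libraries labelled as a breast cancer cell line after knockdown of the lncRNA Smyca. The 10 genes were chosen by name out of 58302 Ensembl genes: the cadherins CDH1, CDH2 and CDH3, the catenins CTNNA1, CTNNB1, CTNND1 and JUP, the nectin NECTIN2, and the desmosomal genes DSP and DSG2. Each was matched by its symbol to 1 Ensembl identifier. Of these genes, 9 passed the filter on low counts, and CDH2 did not.

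Total RNA was measured in 3 libraries of cells expressing control shRNA and 3 libraries of cells expressing Smyca shRNA #1, all labelled MDA-MB231, without any other treatment named in the labels. MDA-MB-231 is a breast cancer line that is commonly described as mesenchymal, with cadherin-11 in place of E-cadherin. The comparison asks which genes differ when Smyca, a nuclear lncRNA whose gene is annotated as MIR23AHG, is reduced by 1 shRNA. The study describes the replicates as biological repeats, but the labels do not say that they were separate cultures, so p-values measure the spread between these libraries, which may be partly technical.

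Adherens junctions hold neighbouring epithelial cells together. Classical cadherins bind each other across the gap between cells, and inside the cell p120-catenin (CTNND1) stabilises them at the membrane, while β-catenin (CTNNB1) or its relative plakoglobin (JUP) links them to α-catenin (CTNNA1) and so to actin. β-catenin is also the nuclear effector of Wnt signaling. Desmosomes are sister junctions in which desmogleins such as DSG2 are tied to keratin filaments through plakoglobin and desmoplakin (DSP). In epithelial-mesenchymal transition (EMT), E-cadherin (CDH1) is lost and N-cadherin (CDH2) is often gained.

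The shRNA target is shown because it bears on whether a member could be hit directly. It is written 5′ to 3′ in the sense of the Smyca transcript, and the capitals mark the bases that pair with bases 2 to 8 of the guide strand.
shSmyca#1 target: gcatagataggtgGGTGAGTg
The capital letters occur in 10.8% of 19061 reference transcripts (MANE Select, GENCODE release 44) and in 0 of the 10 member transcripts. The longest run that any member transcript shares with the target was 10 bases, in CDH1, and in the others it was 7 or 8 bases.

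Total counts lay between 14999307 and 16501085 per library. MIR23AHG had 25.0, 19.5 and 22.0 normalized CPM (CPM, counts scaled to the TMM-adjusted library size) in control replicates 1, 2 and 3, and 10.5, 6.97 and 5.61 in the knockdown replicates. All 3 knockdown libraries lay below all 3 controls, with a log2 fold change of 1.53 (SE 0.26, adjusted p = 0.111 in edgeR's quasi-likelihood test, adjusted by Benjamini and Hochberg). All fold changes here are control over knockdown, so that a positive value is a higher level in control cells. A gene was called where the ratio was at least 1.5 or at most 0.66 and the adjusted p was under 0.05, which 4 of 15075 genes met (DUSP1, ZFP36, JUN and B4GALNT4, none of them a member).

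Some markers went against the cell line label and others did not, in control and knockdown libraries alike. The epithelial genes EPCAM (236 to 336 normalized CPM) and KRT19 (850 to 1957) were high, and CDH11, the gene of cadherin-11, had at most 2 counts in any library. Of the other luminal genes, ESR1, PGR and FOXA1 did not exceed 3 counts in any library and GATA3 had 19 to 61 counts. The 4 mesenchymal or basal-like markers were all present, with VIM at 71.2 to 305 normalized CPM, MSN at 341 to 767, CAV1 at 27.9 to 101 and CD44 at 9.31 to 37.2. Per kilobase of gene length, VIM had a mean of 117 and CD44 24.1, below EPCAM at 237 and KRT19 at 1662. All 4 had higher fitted levels in control cells, and 0 were called. By edgeR 3 had an unadjusted p under 0.05, beside 19.2% of all genes. VIM alone had groups that did not overlap (log2 fold change 1.09, SE 0.30, adjusted p = 0.131). A list of gut epithelial genes, chosen after these values were seen, was mixed. HNF4A, a transcription factor of liver and gut, had 65.4 to 194 normalized CPM, VIL1, which encodes the microvillus protein villin, 220 to 501, CDX2 6.08 to 11.1 and CDHR5 3.78 to 11.5. LGALS4 had 5 to 21 counts, KRT20 and GPA33 at most 6, and CDX1 had 0. The libraries are therefore called by their shRNA labels, without a claim on the cell type.

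A second fact bears on control replicate 2. In the other 5 libraries the deposited FPKM followed from the count, a fixed length per gene and the total of the library, within 1%, for 100% of genes with at least 20 counts. In control replicate 2 this held for 2.64% of such genes. The reads recovered from that FPKM column correlated across 15068 genes with the counts of control replicate 3 at r = 0.996 and with the counts of its own library at r = 0.965, where genes are not independent replicates. The r was 0.956 with control replicate 1 and 0.972 to 0.973 with the knockdown libraries, so these were also nearer than its own counts. Results are given with the deposited counts, and those with the recovered reads are given after the members.

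Among E-, N- and P-cadherin, E-cadherin (CDH1, chr16:68737292-68835537 on the plus strand of GRCh38) made up most of the RNA, and N-cadherin was all but missing. CDH1 had 300.1, 192 and 71.5 normalized CPM in control replicates 1 to 3, and 93.8, 77.6 and 172 in knockdown replicates 1 to 3. The groups overlapped, since control replicate 3 was the lowest library of all 6 and knockdown replicate 3 lay close to control replicate 2. The means were 188 ± 114 (SD, n = 3) in control and 114 ± 50.2 (SD, n = 3) in knockdown cells. The log2 fold change of 0.72 (SE 0.48) had an adjusted p of 0.443 by edgeR. Without control replicate 1 it was 0.21, and without control replicate 3 it was 1.10 with an adjusted p of 0.0616. Without knockdown replicate 3 it was 1.12 (adjusted p = 0.295), so single libraries of either group moved it by more than 1.5 times. With the recovered reads of control replicate 2 it was 0.37 (adjusted p = 0.743).

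CDH2 (chr18:27932879-28177946, minus strand) had 1 count in control replicate 1 and 0 counts in the other 5 libraries. The limit that a count of 0 allows, set at 3 counts per library, corresponds to between 0.185 and 0.198 normalized CPM and covers counting error only. CDH3 (chr16:68636189-68727468, plus strand), which encodes P-cadherin, ends 9823 bases before CDH1 starts on the same strand. It had 5.37, 5.23 and 2.88 normalized CPM in control and 3.43, 3.23 and 4.89 in knockdown replicates, so the groups overlapped, and its log2 fold change was 0.22 (SE 0.34, adjusted p = 0.747). It was 0.083 without control replicate 1 and 0.46 without control replicate 3.

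Scaled to gene length, CDH1 was between 94.3% and 97.4% of the sum of CDH1, CDH2 and CDH3 in every library. The share was 96.0% ± 1.499 (SD, n = 3) in control and 95.1% ± 0.874 (SD, n = 3) in knockdown cells, and the groups overlapped. A log2 ratio of CDH1 to CDH2 could not be formed, because CDH2 was at 0 in 5 libraries. The sum leaves out other cadherins that were measured, CDH4 and CDH24 among them.

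β-Catenin separated the groups. CTNNB1 (chr3:41194741-41260096, plus strand) had 363, 481 and 332 normalized CPM in control replicates and 605, 580 and 680 in knockdown replicates. Each knockdown library was above each control library. The means were 392 ± 78.7 (SD, n = 3) in control and 622 ± 52.3 (SD, n = 3) in knockdown cells, or 1.58 times higher in the knockdown by the fitted ratio. The log2 fold change was -0.66 (SE 0.18) with an unadjusted p of 0.00479 and an adjusted p of 0.127 by edgeR, so CTNNB1 was not called. DESeq2's Wald test called it at an adjusted p of 0.0200, and edgeR without a filter beyond 1 count called it at 0.0345. Over 14 alternative settings its log2 fold change kept the negative sign, between -0.91 and -0.56, and its adjusted p ranged from 0.0200 to 0.440. With the recovered reads of control replicate 2 it was -0.91 (adjusted p = 0.0727).

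The count for the whole set has to be read against all genes. By edgeR 0 of 9 tested members were called, beside 0.0265% of the 15075 genes tested. By DESeq2 1 of 9 was called, beside 5.44%, and it was CTNNB1. At an unadjusted p under 0.05, 1 of 9 members was counted, beside 19.2% of all genes. Groups that did not overlap were found in 1 of 9 members, again CTNNB1, beside 24.8% of all genes. Without control replicate 3 edgeR called 0 of 9 members, while 10.5% of 15449 genes were called. Of the 9 members, 6 had a higher and 3 a lower fitted level in control cells, with a median log2 fold change of 0.09, against 0.04 over all genes.

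**Figure D1:**
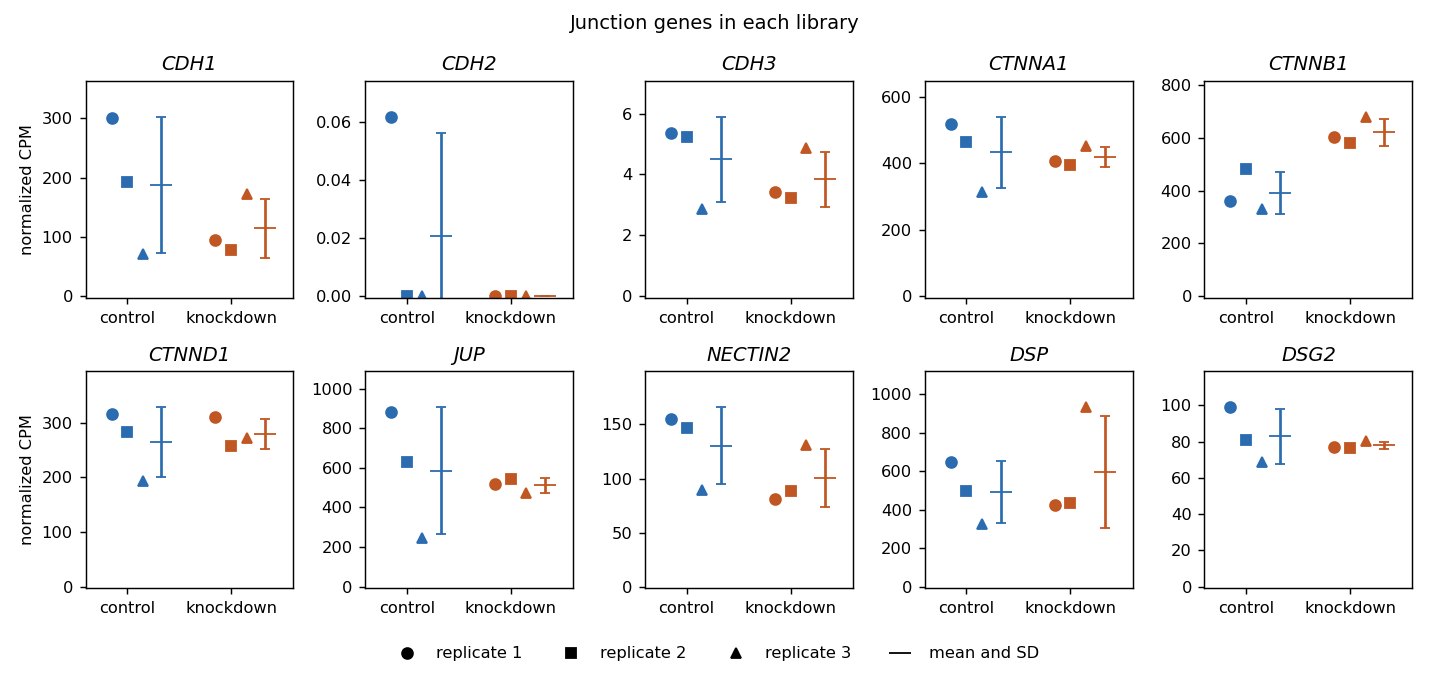
Normalized CPM (y axis, from 0, its own scale in each panel) of the 10 genes in 3 control (blue) and 3 Smyca knockdown (orange) libraries; symbols are replicates, and the bar beside them is the mean with its SD. In CTNNB1 the 3 knockdown libraries sit between 580 and 680, all above the control libraries, while the groups overlap in the other 8 tested genes.

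Plakoglobin, the closest relative of β-catenin, did not show that separation. JUP (chr17:41754604-41786931, minus strand) had 882, 627 and 246 normalized CPM in control replicates and 519, 544 and 470 in knockdown replicates. The control libraries spanned a 3.59-fold range that enclosed all knockdown values. Its log2 fold change was 0.20 (SE 0.38, adjusted p = 0.804), and it was -0.22 without control replicate 1 and 0.56 without control replicate 3. The length-scaled log2 ratio of JUP to CTNNB1 was 1.43, 0.54 and -0.28 in control replicates and -0.07, 0.06 and -0.38 in knockdown replicates. These ratios also overlapped, with means of 0.56 ± 0.86 (SD, n = 3) and -0.13 ± 0.23 (SD, n = 3), and the overlap came from control replicate 3 alone. The difference of the means was 0.69, and it was 0.26 without control replicate 1 and 1.11 without control replicate 3.

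The other catenins stayed close between the group means. CTNNA1 (chr5:138610967-138935034, plus strand), the link to actin, had 519, 465 and 313 normalized CPM in control and 406, 395 and 453 in knockdown replicates. CTNND1 (chr11:57753243-57819546, plus strand) had 316, 283 and 192 in control and 309, 257 and 271 in knockdown replicates. In both genes control replicate 3 was the lowest library and the groups overlapped. The log2 fold changes were 0.05 (SE 0.20, adjusted p = 0.915) for CTNNA1 and -0.08 (SE 0.20, adjusted p = 0.846) for CTNND1. Their signs turned when single control libraries were left out.

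NECTIN2, a cell adhesion molecule that starts contacts alongside cadherins, lies at chr19:44846175-44889223 on the plus strand. It had 155, 146 and 89.7 normalized CPM in control and 81.0, 88.9 and 131 in knockdown replicates. Control replicate 3 fell among the knockdown libraries, and knockdown replicate 3 came near the other controls. Its log2 fold change was 0.38 (SE 0.25, adjusted p = 0.446). It was 0.24 without control replicate 1 or without knockdown replicate 1, 0.58 without control replicate 3 and 0.61 without knockdown replicate 3.

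Of the desmosomal genes, DSP was set apart by 1 library. DSP (chr6:7541338-7586714, plus strand) had 650, 498 and 328 normalized CPM in control and 424, 435 and 932 in knockdown replicates. Knockdown replicate 3 was the highest library, and the other knockdown libraries lay inside the control range. The log2 fold change was -0.28 (SE 0.35, adjusted p = 0.693), and without knockdown replicate 3 it was 0.19. DSG2 (chr18:31498177-31549008, plus strand) varied least, with 98.9, 80.7 and 69.0 normalized CPM in control and 77.0, 76.6 and 80.3 in knockdown replicates. Its knockdown values lay inside the control range, and its log2 fold change was 0.09 (SE 0.16, adjusted p = 0.794).

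**Figure D2:**
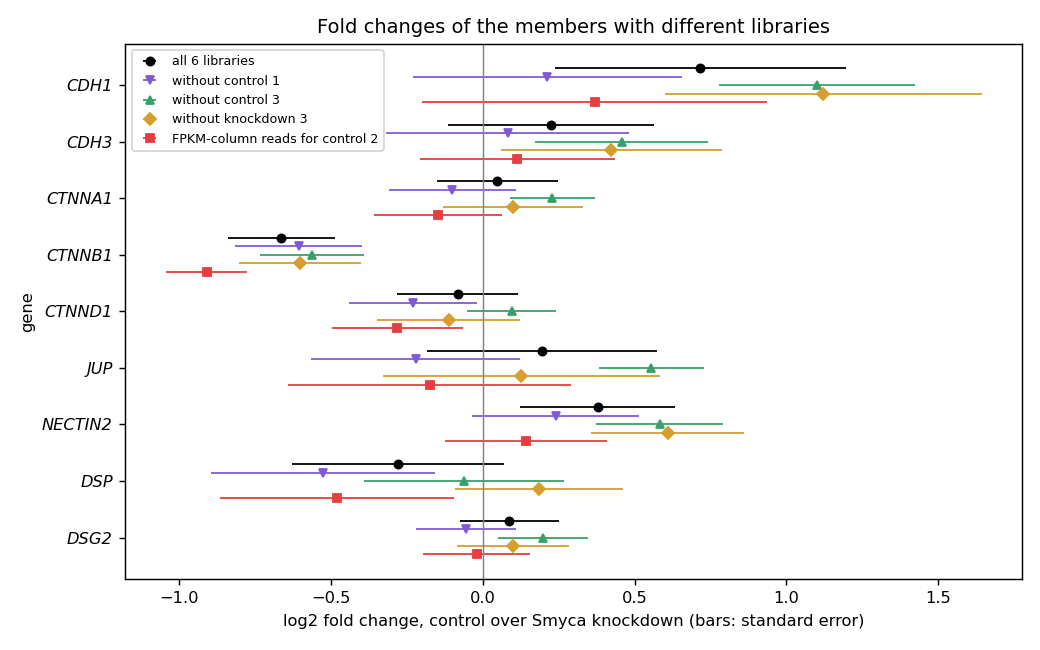
Log2 fold change, control over Smyca knockdown (x axis), of the 9 tested genes (y axis) with all 6 libraries, without control replicate 1 or 3, without knockdown replicate 3, and with the reads recovered from the FPKM column of control replicate 2; bars are standard errors. CTNNB1 stays between -0.91 and -0.56 in these 5 fits, while JUP runs from -0.22 to 0.56.

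The members shared a pattern across libraries that did not follow the groups. Control replicate 3 was the lowest library for 8 of 9 members, against 20.2% of all genes tested and 32.0% of 4505 genes with a mean of at least 50 normalized CPM. Control replicate 1 was the highest for 7 of 9 members, against 23.4% of all genes. Relative to each gene's mean over the 6 libraries, the median member was at a log2 of 0.34, 0.15 and -0.48 in control replicates 1 to 3 and -0.05, -0.09 and 0.23 in knockdown replicates 1 to 3. The median over all genes tested was within 0.02 of 0 in each library. The control range exceeded the difference of the group means in 8 of 9 members, as in 72.3% of all genes, with CTNNB1 the exception. In bulk RNA, fewer cells that express a gene and less RNA per cell cannot be told apart, and what moved these libraries was not tested.

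With the recovered reads, control replicate 2 lay nearer to control replicate 3 than to control replicate 1 in 8 of the 9 tested members, and CDH3 was the exception. CDH1 then had 1324 reads in place of 3121 counts, JUP 4281 in place of 10197, and CTNNB1 5279 in place of 7825. The log2 fold changes of CTNNA1, JUP and DSG2 took the opposite sign in that fit, at -0.15, -0.18 and -0.020. Those of CDH3 and NECTIN2 shrank to 0.11 and 0.14, and those of CTNND1 and DSP were -0.28 and -0.48. The difference in the share of CDH1, control minus knockdown, was 0.943 percentage points with the deposited counts and -0.325 with the recovered reads. It was 0.236 without control replicate 1, 1.73 without control replicate 3 and 0.543 without knockdown replicate 2.

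**Figure D3:**
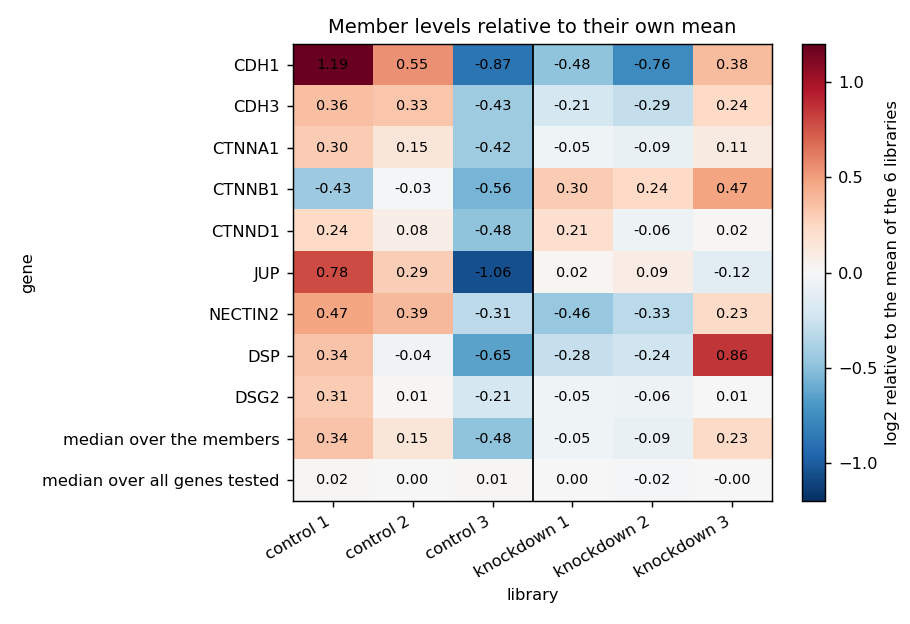
Log2 level of each tested gene relative to its mean over the 6 libraries (colour scale and printed values; rows are genes, columns are libraries, with the control libraries left of the line), with the medians over the members and over all genes tested in the last rows. Control replicate 3 is the lowest library for 8 of 9 genes, and the median over all genes stays within 0.02 of 0.

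Over the 6 libraries, the member most like CDH1 was CDH3, with a Pearson r of 0.97 on log2 normalized CPM. For NECTIN2 and DSP it was also CDH3, at 0.95 and 0.78, for JUP and DSG2 it was CTNNA1, at 0.93 and 0.90, and for CTNND1 it was JUP, at 0.90. CTNNB1 was the least alike for all other 8 members, at r between -0.17 and 0.43. These values describe 6 libraries that share the differences in control replicates 1 and 3 described above.

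Levels were compared between genes only per length, as normalized CPM per kilobase of the length behind the deposited FPKM. In that order CTNNA1 had a mean of 453, JUP 393, CTNNB1 327, NECTIN2 93.0, DSP 89.0, CDH1 67.9, CTNND1 58.5, DSG2 23.3 and CDH3 2.73. The 6 library values did not overlap between CTNNB1 and NECTIN2, CTNND1 and DSG2, DSG2 and CDH3, and CDH3 and CDH2, and they overlapped between the other neighbours. The 3 catenins CTNNA1, JUP and CTNNB1 were thus above all other members in every library, and their order among themselves was not resolved. With MANE Select transcript lengths in place of those behind the FPKM, which is an alternative added after the data were seen, the order began JUP, CTNNB1, CTNNA1. CDH1 was above 85.1% of all tested genes in level per length and CDH3 above 25.1%.

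**Figure D4:**
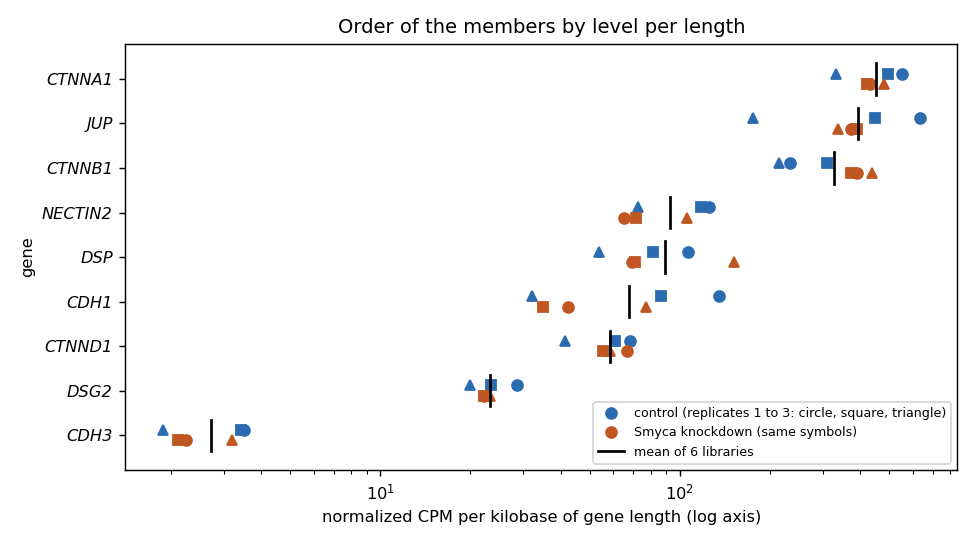
Normalized CPM per kilobase of gene length (x axis, log scale) of 9 members (y axis, ordered by mean) in 3 control (blue) and 3 Smyca knockdown (orange) libraries; the black line is the mean of 6 libraries. CTNNA1, JUP and CTNNB1 form the upper end, with means of 453, 393 and 327, and CDH3 the lower end, with 2.73.

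The other genes of these junctions were taken from 8 lists with 55 genes, of which 40 passed the filter. By edgeR 0 of 40 were called, and 20 had a higher and 20 a lower fitted level in control cells. At an unadjusted p under 0.05, 6 were higher and 2 lower in control cells, beside 19.2% of all genes in either direction. Groups did not overlap in 11 of 40, beside 24.8% of all genes, so neither count stood out from the background.

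Among 8 other cadherins, 4 were tested and 0 called. CDH24, a cadherin that binds catenins, had 31.3, 33.3 and 25.3 normalized CPM in control and 16.2, 13.9 and 16.2 in knockdown replicates. The groups did not overlap, with a log2 fold change of 0.96 (SE 0.18, adjusted p = 0.111), and 3 of 14 alternatives called it. CDH17, the cadherin of intestinal epithelium, was low, at 0.80, 2.22 and 0.70 in control and 4.25, 3.61 and 0.92 in knockdown replicates, which overlapped (log2 fold change -1.23, SE 0.64, adjusted p = 0.328). CDH5, CDH6, CDH11 and CDH15 did not exceed 14 counts in any library and were not tested.

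Of the other desmosome genes, 6 of 9 were tested and 0 called. PKP1, which encodes the desmosomal plaque protein plakophilin-1, had 0.62, 0.68 and 1.02 normalized CPM in control and 7.56, 4.12 and 1.39 in knockdown replicates. All 3 knockdown libraries were higher, with a log2 fold change of -2.49 (SE 0.60, adjusted p = 0.122), and 3 of 14 alternatives called it. Its relative PKP3 had a log2 fold change of -0.16 (SE 0.18, adjusted p = 0.655), which ran from -0.33 to -0.038 over the settings tried.

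Among the other catenins, and among nectins and afadin, 3 genes each were tested and 0 called. The most changed of each was ARVCF, a relative of p120-catenin, at 0.45 (SE 0.22, adjusted p = 0.306), and AFDN, which encodes the nectin-binding protein afadin, at 0.29 (SE 0.22, adjusted p = 0.507). All 7 actin linkers were tested and 0 called. ZYX, which encodes the focal adhesion protein zyxin, had a log2 fold change of 0.58 (SE 0.20, adjusted p = 0.186) with groups that did not overlap and was called in 1 of 14 alternatives, without control replicate 3. VCL, the gene of vinculin, had 0.26 (SE 0.29, adjusted p = 0.650). Over the settings tried, VCL ran from -0.029 to 0.54 and so changed sign, while AFDN ran from 0.079 to 0.44 and ARVCF from 0.31 to 0.66.

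Of 11 genes of β-catenin turnover and its nuclear partners, 3 had a higher and 8 a lower fitted level in control cells and 0 were called. BCL9, a coactivator that binds β-catenin in the nucleus, had 39.4, 36.9 and 32.3 normalized CPM in control and 56.6, 62.8 and 46.4 in knockdown replicates. Like CTNNB1 it was higher in each knockdown library, with a log2 fold change of -0.61 (SE 0.16, adjusted p = 0.129), and it was called in 1 of 14 alternatives, by DESeq2. LEF1, a DNA-binding partner of β-catenin, was at or below 2.65 normalized CPM and had a log2 fold change of 0.65 (SE 0.41, adjusted p = 0.418). Its groups did not overlap either, in the opposite direction, but control replicate 2 and knockdown replicate 3 both rounded to 1.72. Groups did not overlap in 3 of these 11 genes, beside 24.8% of all genes. Of 3 genes of cadherin turnover, 0 were called, and the most changed was the sheddase gene ADAM10 at -0.25 (SE 0.15, adjusted p = 0.411).

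Of 6 E-cadherin repressors, 3 were tested, all 3 with higher fitted levels in control cells, and 0 were called. SNAI2, the gene of Slug, had 25.2, 14.0 and 11.5 normalized CPM in control and 7.75, 10.1 and 5.02 in knockdown replicates, which did not overlap (log2 fold change 1.15, SE 0.36, adjusted p = 0.155). SNAI1, the gene of Snail, which was named after its values were seen, had a log2 fold change of 0.86 (SE 0.19, adjusted p = 0.111). SNAI2 and SNAI1 were each called in 3 of 14 alternatives. ZEB1, also named after its values were seen, had 0.71 (SE 0.22, adjusted p = 0.149). All 3 had an unadjusted p under 0.05 and groups that did not overlap, beside 19.2% and 24.8% of all genes, and the list was chosen with these results known. ZEB2, TWIST1 and TWIST2 had at most 15 counts in any library. Over the settings tried, SNAI2 ran from 0.74 to 1.39, LEF1 from 0.37 to 0.88, ADAM10 from -0.34 to -0.12, ZYX from 0.37 to 0.73 and CDH17 from -1.95 to -0.87, each with its sign kept. CDH1 itself, with overlapping groups, had the fold change of 0.72 given above.

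**Figure D5:**
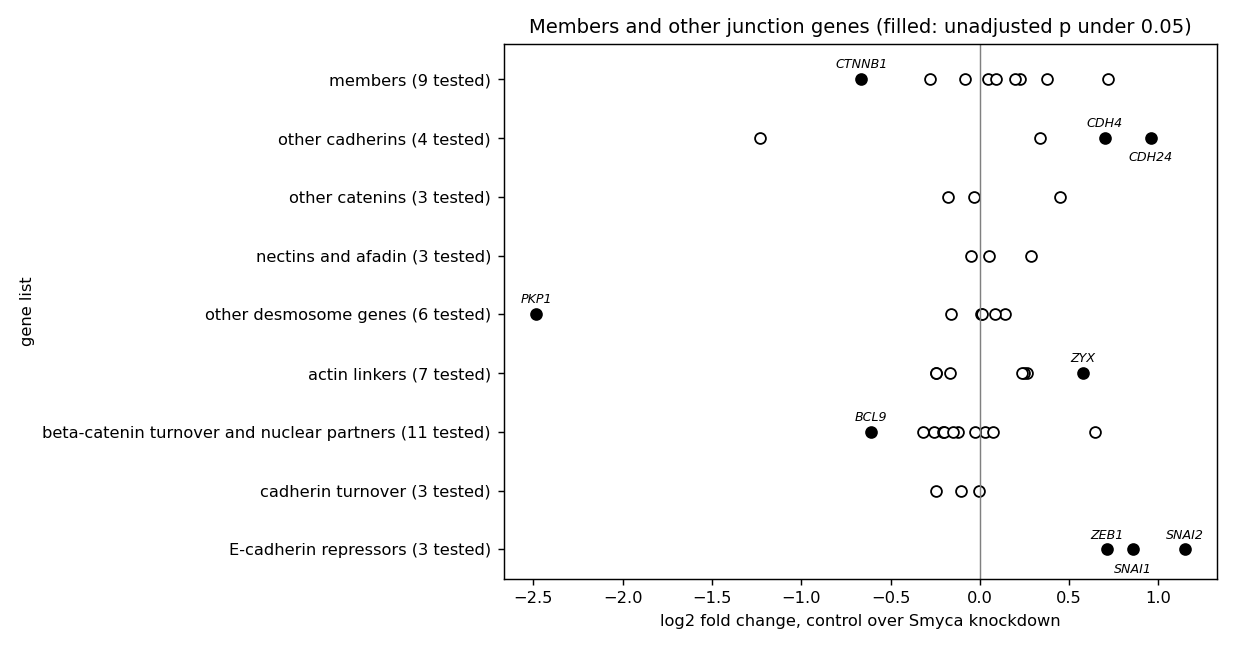
Log2 fold change, control over Smyca knockdown (x axis), of the tested members and of the tested genes of 8 other lists (y axis); each circle is a gene, filled where the unadjusted p is under 0.05. In the member row CTNNB1 is filled, at -0.66, and by edgeR 0 genes are called in any row.

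Slug, Snail and ZEB proteins bind the letters CACCTG, on either strand (CAGGTG on the other). These letters occur in 20.6% of 35116 RefSeq promoter windows of GRCh38.p14, each running from 250 bases before a start site to 50 after. Windows were matched for CDH2, CTNNA1, CTNNB1, DSG2, DSP, JUP and NECTIN2, and those of CDH1, CDH3 and CTNND1 were not analysed here. CDH2, CTNNA1 and JUP had several windows, so the 20.6% per window is not a share per gene. Whether the members differ from that share was not tested. Matches were found for DSG2, DSP and JUP, which are shown in 30-base stretches on the strand of the gene, with the letters in capitals.
DSG2, chr18:31497933-31497962, plus strand: acgtcacggtccCAGGTGcgagtgcgagcg
DSG2, chr18:31498049-31498078, plus strand: tcgcggcggccaCACCTGgagccgcgcctt
DSP, chr6:7541481-7541510, plus strand: gggcggcgggcgCAGGTGgggaggggcggc
DSP, chr6:7541574-7541603, plus strand: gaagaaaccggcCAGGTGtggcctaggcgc
JUP, chr17:41786007-41786036, minus strand: tggcccCACCTGccgagCAGGTGagcgcac
The JUP stretch holds the letters on both strands, 54 and 43 bases before the start site of that window (chr17:41785927-41786226), which lies inside the gene. A second JUP window, at the 5′ end of the annotated gene (chr17:41786662-41786961), held none. A match is a description of the letters and not of binding, and the windows of CTNNB1, CTNNA1, NECTIN2 and CDH2 held none.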

How the data were processed

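The members and the gene lists were chosen with earlier results of these data known. Per the labels and the methods of the study, rRNA was removed, strand-specific paired-end libraries were sequenced, reads were mapped to hg38 with TopHat2 2.0.12 and counted per gene with HTSeq. The annotation release and strand setting are not given in the sources used here. The authors deposited a raw read count and an FPKM value per gene and library. The deposited FPKM values were used for gene lengths and for the reads of control replicate 2, of which 100% of 9542 low values came out whole within 0.1. Deposited columns without a sample numbered 0.

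Symbols came from GENCODE release 44. Counts were fitted in R 4.3.3 with edgeR 4.0.16 (TMM, filterByExpr, quasi-likelihood test of control against knockdown, Benjamini-Hochberg adjustment over 15075 genes), and with DESeq2 1.42.0 as an alternative. The code was tested on simulated data. Relative log2 levels used a prior count of 0.5. The biological coefficient of variation was 25.2%.

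The genes named were all members, the called genes and the 2 most changed tested genes of each other list (1 where 3 or fewer were tested), and MIR23AHG. Alternatives were RLE size factors, total counts, other filters, DESeq2, a replicate block, each replicate left out, other thresholds and the FPKM-column reads. MANE lengths, and the FPKM-column reads without control replicate 3, were added after the data were seen, and so was the list with HNF4A and VIL1. One gene of that list is not reported here.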

Additional observations from a re-analysis of the deposited data

How the results depend on the processing

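Across 14 settings, 116 of 126 member fold changes kept the direction reported, and 2 became calls, both of CTNNB1. The 10 that turned, each with the cause not tested, were CTNNA1 (-0.15 with the FPKM-column reads of control replicate 2, -0.027 with these and control replicate 3 left out, -0.10 and -0.011 without control replicates 1 and 2, and -0.10 to 0.23 over all left-out replicates), CTNND1 (0.095 without control replicate 3, and -0.23 to 0.095 over left-out replicates), JUP (-0.18 with the FPKM-column reads, -0.22 without control replicate 1, and -0.22 to 0.56 over left-out replicates), DSP (0.19 without knockdown replicate 3, and -0.53 to 0.19 over left-out replicates) and DSG2 (-0.020 with the FPKM-column reads, -0.056 without control replicate 1, and -0.056 to 0.20 over left-out replicates). Members called were 0 in the reported fit and 1 with DESeq2 or without a filter beyond 1 count. Genes called over the whole table were 4 in the reported fit, 820 with DESeq2, 916 without a filter, 10 with the FPKM-column reads, 1 with these and control replicate 3 left out, 8 with total counts, and 0 to 1628 with a replicate left out, the highest without control replicate 3. Other junction genes called were 0 of 40 in the reported fit and 5 of 40 with DESeq2, beside 5.44% of all genes. They were 4 without a filter, where the share of all genes is not given here, and 0 to 5 with a replicate left out. The 5 came without control replicate 3, where 10.5% of all genes were called. With the replicate block 0 genes were called. Deviations of same-numbered replicates from their group means had a mean r of 0.0437, with single pairs from -0.0139 to 0.0842. The mean of -0.0217 for other pairs follows nearly from that value, because deviations within a group sum to 0. Whether same-numbered libraries share a batch cannot be told from these pairs.

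One further fit, without both control replicate 3 and knockdown replicate 3, was run after the data were seen. It made calls of CDH1 and NECTIN2 and of more genes overall than any setting above. Its libraries had been picked by the values of the members themselves, so its calls carry no weight for CDH1, NECTIN2 or any other member. The fit is therefore not counted among the 14 settings, and its values are not given. Groups of 3 limit the precision of every value here.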
